A study of Homo sapiens with 9 samples.

Results

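The genes described here are REST, the corepressors that it recruits and the splicing factor that inactivates it: REST, RCOR1, RCOR2, RCOR3, KDM1A, SIN3A, HDAC1, HDAC2, EHMT2 and SRRM4. These 10 genes were chosen by their symbols out of the 60664 genes of the deposited count tables, and each symbol was found once. The cells are HEK293 Flp-In T-REx, a human embryonic kidney line carrying a tetracycline repressor, so that a gene placed at a defined site can be switched on with tetracycline. In 3 libraries the cells expressed a microRNA directed against TTC33, in 3 a microRNA directed against CCDC97, and in 3 control libraries they expressed no microRNA. All 3 groups, the controls included, received tetracycline at 100 ng/ml for 3 days, and total RNA was taken. Neither the microRNA sequences nor whether each line is 1 clone is given in the sources used here, and the controls carried no microRNA of unrelated sequence according to the labels. The labels do not say whether the 3 libraries of a group came from separate cultures, so the p-values rest on how much these libraries vary among themselves, and that variation may be technical.

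REST, also called NRSF, is a zinc finger protein that binds a DNA element known as RE1 and silences genes of neurons in cells that are not neurons. Its N-terminal end holds the SIN3A complex with the histone deacetylases HDAC1 and HDAC2, and its C-terminal end holds CoREST, made of an RCOR protein, the histone demethylase KDM1A and the same deacetylases. The histone methyltransferase EHMT2 is recruited as well. In neurons the splicing factor SRRM4 inserts a short exon into REST RNA, which yields a truncated protein with little repressor activity. Kidney-derived cells are among those in which REST is known to be active.

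Of these genes REST was the one whose RNA changed. It fell in the TTC33 knock-down to 61.8% of its control level, and it did not pass the test in the CCDC97 knock-down. The 8 corepressor genes did not pass the test in either knock-down, and SRRM4 RNA was at the limit of detection in all 9 libraries. Of a list of 55 neuronal genes known as REST targets, 43 could be tested, and 35 of these rose in the TTC33 knock-down against 1 in the CCDC97 knock-down. Over all genes tested 6.5% rose in the TTC33 and 2.07% in the CCDC97 knock-down. The list was written with earlier results of these data known. Of the 36 targets above the level of the low-count filter in all control libraries, 30 rose in the TTC33 knock-down.

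Each library held 21764203 to 36110891 gene counts, and 18299 genes were tested. Levels are CPM, counts divided by the size of the library, which TMM factors adjust, and changes are log2 fold changes with their standard error (SE) from edgeR. The adjusted p-values are Benjamini-Hochberg values over all genes tested, and a gene is said to have risen or fallen where the value is under 0.05. TTC33 RNA averaged 7.41 ± 1.96 CPM in the TTC33 knock-down and 37.8 ± 0.772 CPM in control cells (SD, n = 3 each). CCDC97 RNA averaged 15.6 ± 0.283 CPM in the CCDC97 knock-down and 60.1 ± 0.55 CPM in control cells (SD, n = 3 each). Both targeted genes were thus lower in the libraries labelled with their knock-down, without overlap with the controls. CCDC97 RNA was at 65.1, 81.3 and 95.8 CPM in the TTC33 knock-down, above all controls. Its log2 fold change there was 0.43 (SE 0.12, edgeR adjusted p = 0.0371), a call lost in 7 of 9 fits that each left out 1 library. TTC33 RNA was at 30.0, 52.5 and 47.0 CPM in the CCDC97 knock-down, on both sides of the controls (0.19, SE 0.20, edgeR adjusted p = 0.632).

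A trend with GC content bears on several of the genes below. Genes of low GC content stood below and genes of high GC content above the control mean in replicates 2 and 3 of the TTC33 knock-down, and the other way round in replicates 2 and 3 of the CCDC97 knock-down. For the tenth of genes with the lowest GC content (median 36.7%), the median log2 difference from the control mean was 0.03, -0.44 and -0.48 in the TTC33 knock-down libraries. It was -0.15, 0.16 and 0.15 in the CCDC97 knock-down libraries. Replicate 1 of each knock-down thus stood apart from the other two. Values are therefore also given after a correction that removes smooth trends of GC content and transcript length in each library.

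REST lies on chromosome 4 at chr4:56907876-56966678 on the plus strand (GRCh38, GENCODE 29; ENSG00000084093), and the GC content of its longest transcript is 40%. Its level was 70.9, 53.2 and 55.6 CPM in the TTC33 knock-down libraries, 89.3, 110 and 117 CPM in the CCDC97 knock-down libraries, and 97.3, 97.6 and 95.7 CPM in the control libraries. All TTC33 knock-down libraries were below all others, replicate 1 being the highest of the 3, whereas the CCDC97 knock-down libraries lay on both sides of the controls. The means were 59.9 ± 9.59 CPM in the TTC33 knock-down, 106 ± 14.6 CPM in the CCDC97 knock-down and 96.9 ± 1.04 CPM in control cells (SD, n = 3 each). The spread within each knock-down was thus larger than that among the controls.

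In the TTC33 knock-down the log2 fold change of REST was -0.69 (SE 0.12, edgeR adjusted p = 0.00601), with 3 of 3 libraries below the controls. REST was the only 1 of the 9 members tested that passed in this comparison. Over all genes tested, 11.9% passed the same test, 6.5% higher and 5.44% lower, so a share of 1 in 9 is near the background and says nothing particular of these genes as a group. The median log2 fold change was -0.08 over the 9 members and 0.00 over all genes tested. Since these are bulk libraries, fewer cells with REST RNA and less REST RNA per cell cannot be told apart.

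After correction for GC content and length the log2 fold change of REST was -0.57 (SE 0.06, edgeR adjusted p = 5.2e-06), or 67.6% of control, in a fit that called 27.7% of all genes tested. The corrected log2 differences from the control mean were -0.50, -0.64 and -0.57 in the TTC33 knock-down libraries. Without the correction they were -0.45, -0.86 and -0.80. The correction thus brought replicates 2 and 3 closer to replicate 1, which carried little of the GC trend, and the fall was seen in each library with either set of values. Leaving out each of the 9 libraries in turn gave log2 fold changes between -0.83 and -0.62, and the adjusted p (edgeR) was at most 0.0351 in these 9 fits.

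The smaller count tables of the same libraries, marked U, hold between 146 and 537 REST counts a library. As CPM of the U gene counts without TMM factors (U CPM), REST was at 84.0, 55.6 and 60 U CPM in the TTC33 knock-down, 85.6, 111 and 115 U CPM in the CCDC97 knock-down, and 109, 110 and 100 U CPM in control cells. The TTC33 knock-down libraries were again the lowest, although replicate 1 lay close to the lowest CCDC97 knock-down library. These counts come from the same RNA and are no further replicates.

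In the CCDC97 knock-down the log2 fold change of REST was 0.12 (SE 0.12, edgeR adjusted p = 0.611). None of the 9 members tested passed with edgeR in this comparison, where 4.56% of all genes did, 2.07% higher and 2.49% lower. With an unadjusted p under 0.05 there were 0 of 9 as well, with 20.6% of all genes, and DESeq2 called 0 of 9, with 8.04% of all genes. The difference between the knock-downs was tested directly: REST was lower in the TTC33 than in the CCDC97 knock-down by a log2 fold change of -0.82 (SE 0.12, edgeR adjusted p = 0.00172), and by -0.65 (SE 0.06) after the GC correction. That comparison called 1 of the 9 members, against 21.5% of all genes, 11.3% higher and 10.2% lower.

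**Figure D1:**
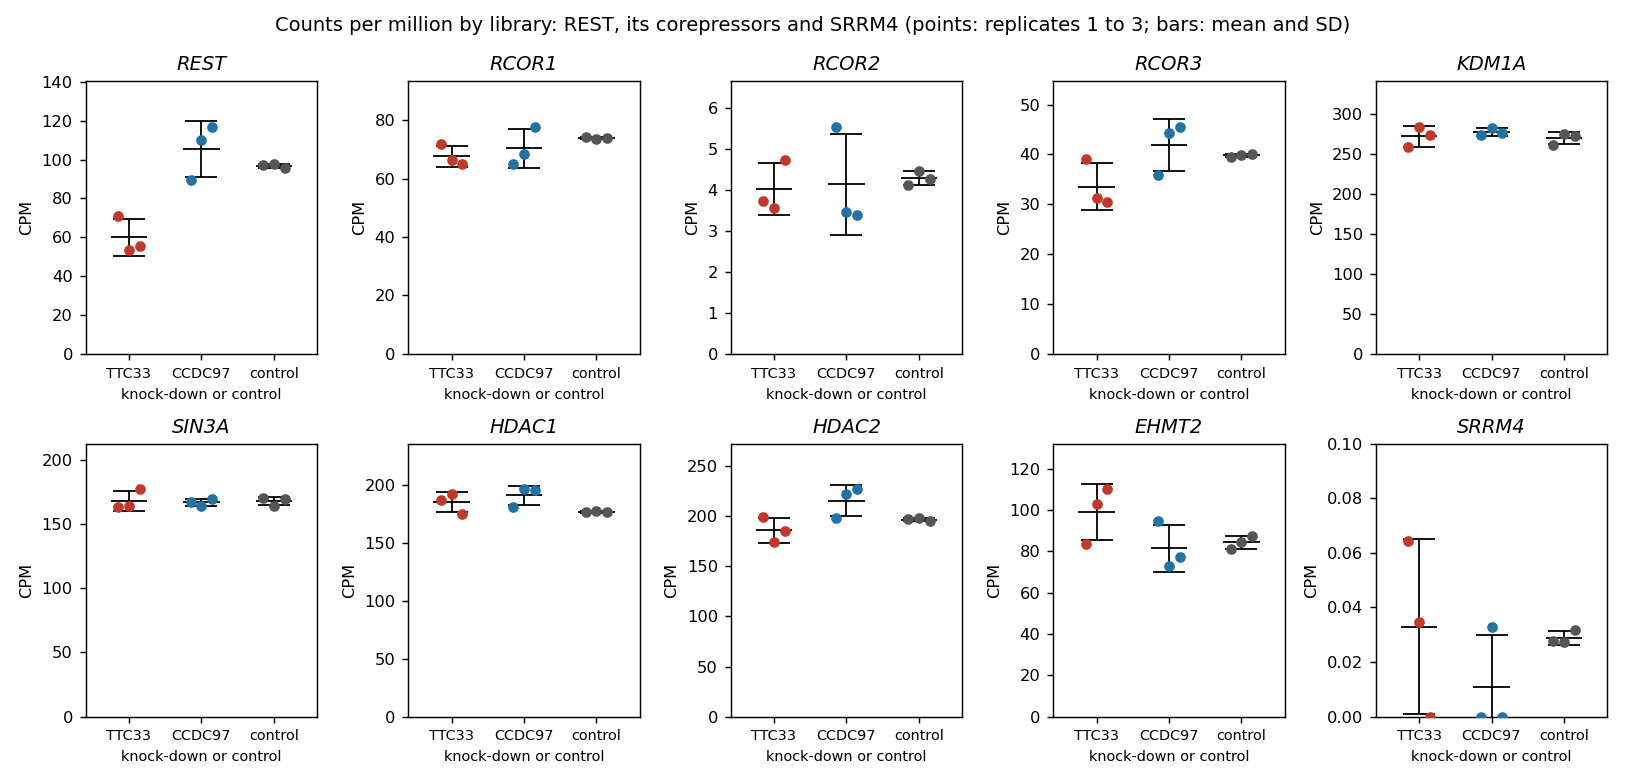
Level of each of the 10 genes in CPM (linear axis from 0, own scale per panel) in the TTC33 knock-down, CCDC97 knock-down and control libraries. Points are libraries in the order of replicates 1 to 3, and bars are mean and SD; REST is at 53.2 to 70.9 CPM in the TTC33 knock-down and 95.7 to 97.6 CPM in control cells, and SRRM4 is below 0.1 CPM in every library.

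RCOR1, RCOR2 and RCOR3 encode the CoREST proteins, which join KDM1A and the deacetylases to REST. RCOR1 was at 71.8, 66.2 and 65.1 CPM in the TTC33 knock-down, 64.9, 68.3 and 77.8 CPM in the CCDC97 knock-down, and 74.2, 73.6 and 74.0 CPM in control cells. The TTC33 knock-down libraries were all slightly below the controls, and the CCDC97 knock-down libraries surrounded them. The log2 fold change came to -0.13 (SE 0.08, edgeR adjusted p = 0.306) in the TTC33 knock-down and -0.07 (SE 0.08, edgeR adjusted p = 0.66) in the CCDC97 knock-down.

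RCOR3 was at 39.1, 31.2 and 30.4 CPM in the TTC33 knock-down, 35.9, 44.2 and 45.6 CPM in the CCDC97 knock-down, and 39.5, 39.9 and 40.1 CPM in control cells. Replicate 1 of the TTC33 knock-down lay just under the controls, and replicates 2 and 3 lay well below. REST, RCOR1 and RCOR3 were the 3 members with all TTC33 knock-down libraries below all control libraries, a pattern that 17.8% of all genes tested showed. The log2 fold change of RCOR3 was -0.24 (SE 0.11, edgeR adjusted p = 0.173), and 0.06 (SE 0.06) after correction, so its direction turned under the joint correction for GC content and length. The GC content of its longest transcript is 36.2%. Without replicate 1 of the TTC33 knock-down it was -0.37 (edgeR adjusted p = 0.0111).

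RCOR2 was the least abundant of the 3, with 3.73, 3.57 and 4.74 CPM in the TTC33 knock-down, 5.55, 3.47 and 3.39 CPM in the CCDC97 knock-down, and 4.12, 4.46 and 4.28 CPM in control cells. The groups overlapped, and each value rests on 70 to 164 counts, so that changes of the size seen for REST would be less precisely measured here (SE 0.19). Relative to each other the 3 genes kept their order. Per kilobase of longest transcript, RCOR1 held 55.5% ± 1.44 of the sum of the 3 in the TTC33 knock-down, 51.6% ± 1.33 in the CCDC97 knock-down and 53.8% ± 0.369 in control cells (SD, n = 3 each). RCOR2 held 7.31% ± 1.46, 6.83% ± 2.55 and 6.9% ± 0.265 in the TTC33 knock-down, CCDC97 knock-down and control libraries. These shares depend on the length used, which the SD does not cover. Control means of RCOR1, RCOR2 and RCOR3 were 12.8, 1.65 and 9.38 CPM per kilobase of longest transcript. Over the union of all exons they were 11.9, 1.57 and 4.38, so RCOR1 would hold a larger and RCOR3 a smaller share.

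KDM1A, the lysine demethylase LSD1 that removes methyl groups from histone H3 lysine 4, was at 258, 284 and 273 CPM in the TTC33 knock-down, 273, 282 and 276 CPM in the CCDC97 knock-down, and 261, 275 and 272 CPM in control cells. The 3 groups overlapped. The log2 fold changes were 0.01 (SE 0.06) in the TTC33 knock-down and 0.04 (SE 0.06) in the CCDC97 knock-down.

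SIN3A, the scaffold of the other deacetylase complex of REST, was at 163, 164 and 177 CPM in the TTC33 knock-down, 167, 164 and 169 CPM in the CCDC97 knock-down, and 170, 164 and 169 CPM in control cells. Its groups overlapped in both comparisons. The log2 fold changes were 0.00 (SE 0.06) in the TTC33 knock-down and -0.01 (SE 0.06) in the CCDC97 knock-down, the smallest among the members tested. SIN3A shares 206 exon bases with a gene on the other strand (AC068338.2), and since the strand setting of the counting is not given, reads there cannot be assigned with certainty.

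HDAC1 and HDAC2 are the class I histone deacetylases that both complexes share. HDAC1 was at 187, 192 and 175 CPM in the TTC33 knock-down, 181, 196 and 195 CPM in the CCDC97 knock-down, and 176, 177 and 176 CPM in control cells. All CCDC97 knock-down libraries were above the controls, which 14.9% of all genes tested also showed, and the log2 fold change there was 0.11 (SE 0.06, edgeR adjusted p = 0.343). HDAC1 was the only member with that pattern. Its pseudogenes HDAC1P1 and HDAC1P2 held at most 35 counts a library.

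HDAC2 was at 199, 174 and 185 CPM in the TTC33 knock-down, 198, 222 and 227 CPM in the CCDC97 knock-down, and 197, 198 and 195 CPM in control cells. Replicate 1 of each knock-down lay within 2 CPM of the highest control, and the other replicates went apart in opposite directions. The log2 fold changes were -0.08 (SE 0.07) in the TTC33 knock-down and 0.13 (SE 0.07) in the CCDC97 knock-down. After the GC correction they were 0.11 (SE 0.06) with TTC33 and 0.10 (SE 0.06) with CCDC97 knocked down, the GC content of HDAC2 being 38.2%. Per kilobase, HDAC1 held 80.3% ± 1.43 of the sum of both genes in the TTC33 knock-down, 78.4% ± 0.53 in the CCDC97 knock-down and 78.6% ± 0.0917 in control cells (SD, n = 3 each).

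EHMT2, also known as G9a, methylates histone H3 lysine 9 and is of high GC content (60.9%). It was at 83.7, 103 and 110 CPM in the TTC33 knock-down, 94.4, 72.8 and 77.1 CPM in the CCDC97 knock-down, and 81.0, 84.3 and 87.6 CPM in control cells. Replicates 2 and 3 of the TTC33 knock-down were above the controls, and replicate 1 was among them. The log2 fold change in the TTC33 knock-down was 0.23 (SE 0.12, edgeR adjusted p = 0.199), and 0.03 (SE 0.04) after correction. Without replicate 1 of the TTC33 knock-down it was 0.34 (edgeR adjusted p = 0.0166). EHMT2 shares 592 exon bases with EHMT2-AS1 on the other strand, which held 20 counts over the 9 libraries.

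In the direct comparison of the knock-downs, RCOR3 (-0.32, SE 0.12, edgeR adjusted p = 0.0707), HDAC2 (-0.21, SE 0.07, edgeR adjusted p = 0.0612) and EHMT2 (0.28, SE 0.12, edgeR adjusted p = 0.103) came nearest to the threshold after REST. Without replicate 1 of the TTC33 knock-down or without replicate 1 of the CCDC97 knock-down, these 3 passed as well, which makes 4 members. With the GC correction their values were 0.02, 0.01 and -0.04 (SE 0.06, 0.06 and 0.04).

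**Figure D2:**
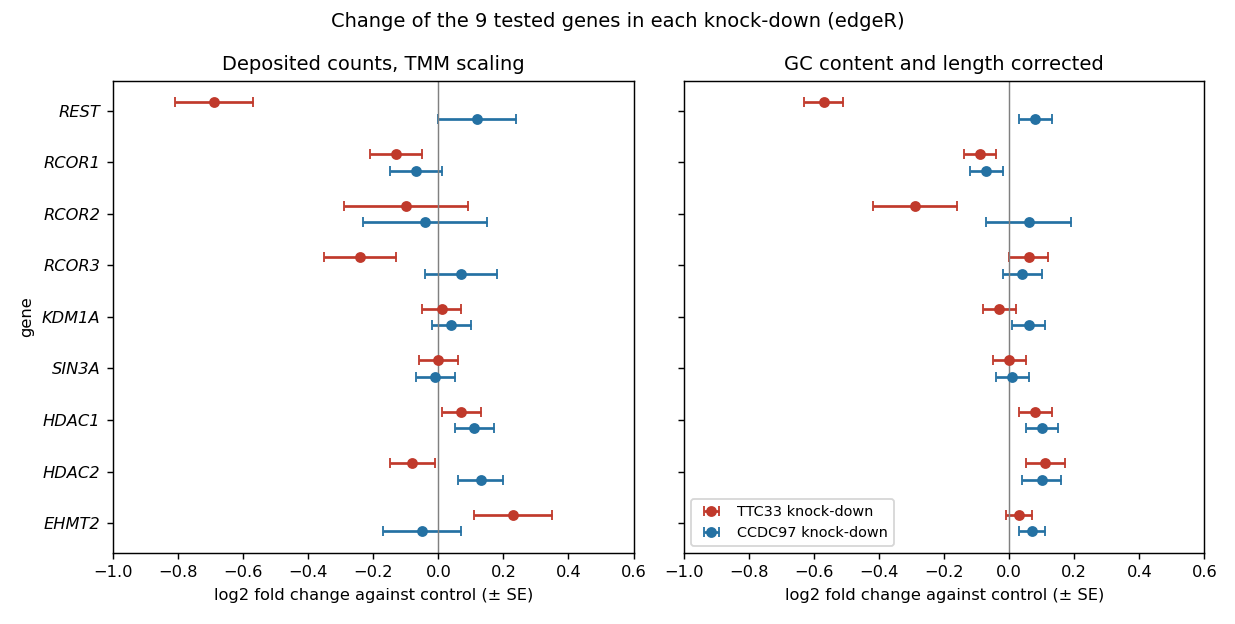
Log2 fold change against control with its SE (edgeR) for the 9 genes tested, TTC33 knock-down above CCDC97 knock-down in each row, from the deposited counts (left) and after correction for GC content and length (right). REST in the TTC33 knock-down lies at -0.69 and -0.57 in the left and right panels, while RCOR3, HDAC2 and EHMT2 move to between 0.03 and 0.11.

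SRRM4 could not be tested. It had 2, 1 and 0 counts in the TTC33 knock-down libraries, 0, 1 and 0 in the CCDC97 knock-down libraries, and 1, 1 and 1 in the control libraries. No library exceeded 3 counts, the limit that a count of 0 allows, which is 0.0816 to 0.145 CPM depending on the library, so no fold is given. The U tables listed no SRRM4 count in any library. The counts are per gene and do not tell the splice forms of REST apart.

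Per kilobase of longest transcript, the order in control cells was KDM1A (88.1 ± 2.3 CPM per kilobase), HDAC1 (73.3 ± 0.315), SIN3A (24.9 ± 0.489), EHMT2 (20.4 ± 0.799), HDAC2 (19.9 ± 0.187), REST (13.3 ± 0.142), RCOR1 (12.8 ± 0.0595), RCOR3 (9.38 ± 0.0662), RCOR2 (1.65 ± 0.0663) and SRRM4 (0.0034 ± 0.000293), as mean ± SD over 3 libraries. EHMT2 and HDAC2 were neighbours whose control libraries overlapped (19.6 to 21.2 and 19.7 to 20.1 CPM per kilobase). In the TTC33 knock-down, REST was at 8.2 ± 1.31 CPM per kilobase, below RCOR1 at 11.8 ± 0.628 and close to RCOR3 at 7.91 ± 1.13. The order in the middle depends on the length used: over the union of all exons, control cells had HDAC2 at 12.7, REST at 12.1, RCOR1 at 11.9 and EHMT2 at 11.6 CPM per kilobase.

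The 3 genes whose levels followed REST most closely over the 9 libraries, among 11515 genes of at least 5 CPM, were SERBP1 (Pearson r = 0.997), SGMS2 (r = 0.994) and FRYL (r = 0.993). The points share the 3 groups and the GC trend of the libraries, and the values are a description without a test. SGMS2, a sphingomyelin synthase, was at 41.1, 29.1 and 29.5 CPM in the TTC33 knock-down, 60.2, 82.5 and 78.3 CPM in the CCDC97 knock-down, and 67.7, 64.4 and 64.3 CPM in control cells. As with REST, its TTC33 knock-down libraries were the lowest and its CCDC97 knock-down libraries lay on both sides of the controls. For HDAC2, the member with the smallest adjusted p in the CCDC97 knock-down, they were ANAPC1 (r = 0.989), ZNF658 (r = 0.983) and ZNF268 (r = 0.982).

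The wider complexes were described with lists of their other subunits, and the shares over all genes tested are the background of each count. In the TTC33 knock-down 16.3% of all genes were higher and 14.9% lower at an unadjusted p under 0.05, DESeq2 called 8.79% higher and 7.72% lower, and with the GC correction edgeR called 14.6% higher and 13.1% lower. In the CCDC97 knock-down the shares were 10.6% and 9.93% at an unadjusted p, 4.22% and 3.82% with DESeq2, and 11.2% and 8.23% with the GC correction. Of 11 CoREST partners, 0 rose and 0 fell with edgeR in the TTC33 knock-down (median log2 fold change 0.15, against 0.00 over all genes tested). At an unadjusted p under 0.05 there were 2 higher, ZNF217 and KDM5C, and DESeq2 called 0. After the correction 1 rose and 1 fell. Of 18 SIN3 partners, 2 rose and 1 fell, with a median of 0.03, and with the GC correction 7 rose and 2 fell. BRMS1 rose by 0.65 (SE 0.11, edgeR adjusted p = 0.0052), being at 26.1, 34.4 and 35.1 CPM in the TTC33 knock-down and 20.2, 20.8 and 19.6 CPM in control cells. PHF12 rose by 0.41, and the histone-binding RBBP7 fell by 0.25 on the log2 scale. These values came to 0.46, 0.32 and -0.14 with the GC correction. RBBP7 no longer passed there (edgeR adjusted p = 0.0755), and RBBP7 and PHF12 lost their calls in 5 and 6 of the 9 fits without 1 library. In the CCDC97 knock-down BRMS1 was at 23.3, 23.8 and 21.8 CPM, also above all controls. Its log2 fold change there was 0.18 (SE 0.11, edgeR adjusted p = 0.39), and 0.28 (edgeR adjusted p = 0.0239) after the GC correction. Between the knock-downs BRMS1 differed by 0.47 (edgeR adjusted p = 0.0152), and by 0.18 (edgeR adjusted p = 0.112) after that correction.

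Of 11 genes of NuRD, a deacetylase complex that also holds HDAC1 and HDAC2, CHD5 rose by 0.76 (SE 0.16, edgeR adjusted p = 0.014) and CDK2AP1 fell by 0.62 on the log2 scale (SE 0.12, edgeR adjusted p = 0.0081) in the TTC33 knock-down. CHD5, a chromatin remodeller known from neurons, was at 6.04, 7.18 and 6.62 CPM in the TTC33 knock-down and 3.87, 3.65 and 4.22 CPM in control cells. CDK2AP1 was at 77.6, 60.5 and 52.8 CPM in the TTC33 knock-down and 98.7, 97.1 and 98.0 CPM in control cells. Both genes separated the groups, CDK2AP1 with the wider spread among its TTC33 knock-down libraries. Of 11 genes of histone H3 lysine 9 methylation, SUV39H1, one of the methyltransferases, rose by 0.38 (SE 0.09, edgeR adjusted p = 0.0267) and none fell with edgeR. At an unadjusted p under 0.05 there were 2 higher and 2 lower, and DESeq2 called 1 higher and 1 lower. The calls of CHD5 and SUV39H1 were lost in 4 and 5 of the 9 fits without 1 library. After the correction 2 NuRD genes rose and 1 fell, and 3 genes of lysine 9 methylation rose and 1 fell. SUV39H1 was then at 0.24 in the TTC33 and 0.15 in the CCDC97 knock-down (edgeR adjusted p = 0.00233 and 0.0407). Between the knock-downs it differed by 0.31 before and 0.09 after the correction (edgeR adjusted p = 0.0391 and 0.218).

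Of 13 genes known to act on the turnover, phosphorylation or transport of the REST protein, such as the ubiquitin ligase subunit BTRC and the deubiquitinase USP7, 0 rose and 0 fell with edgeR in the TTC33 knock-down (median 0.14). At an unadjusted p under 0.05 there were 5 higher and 1 lower, DESeq2 called 1 lower, and with the GC correction 3 rose and 1 fell. In the CCDC97 knock-down edgeR called 0 genes of these 5 lists of complexes and turnover. At an unadjusted p under 0.05 there were 0 higher and 1 lower for CoREST, 2 and 0 for SIN3, 0 and 1 for NuRD, 0 and 0 for lysine 9 methylation, and 3 and 0 for turnover, and DESeq2 called 1 SIN3 partner higher. On the corrected scale edgeR called 0 higher and 1 lower for CoREST, 2 and 1 for SIN3, 0 and 0 for NuRD, 3 and 1 for lysine 9 methylation, and 3 and 0 for turnover in that knock-down.

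The 20 neuronal splicing factors beside SRRM4 gave 15 tested genes, of which 3 rose and 0 fell with edgeR in the TTC33 knock-down. The shares over all genes tested were 6.5% and 5.44%. At an unadjusted p under 0.05 there were 5 higher and 1 lower, against 16.3% and 14.9% of all genes. DESeq2 called 3 higher and 0 lower, against 8.79% and 7.72%. With the GC correction 5 rose and 0 fell, against 14.6% and 13.1%. In the CCDC97 knock-down 0 rose and 1 fell with edgeR, against 2.07% and 2.49%. On the corrected scale 3 rose and 1 fell there, against 11.2% and 8.23%. SRRM3, the paralogue of SRRM4, was at 4.34, 5.76 and 5.93 CPM in the TTC33 knock-down, 2.55, 1.35 and 1.5 CPM in the CCDC97 knock-down, and 1.99, 1.93 and 2.06 CPM in control cells. Its TTC33 knock-down libraries were above all others, with a log2 fold change of 1.42 (SE 0.21, edgeR adjusted p = 0.0021), and 1.11 after correction. CELF3 rose by 3.14 and NOVA2 by 0.63 in the TTC33 knock-down, CELF3 being at 0.249, 0.381 and 0.0951 CPM in control cells. Both are RNA-binding proteins known from the brain, as is NOVA1, the one factor that fell in the CCDC97 knock-down (-0.41, SE 0.10, edgeR adjusted p = 0.0375, lost in 6 of the 9 fits without 1 library). NOVA1 was below all controls in the TTC33 knock-down too. Its log2 fold change there was -0.26 (SE 0.09, edgeR adjusted p = 0.0955), and -0.04 after the GC correction. Between the knock-downs NOVA1 differed by 0.15 (edgeR adjusted p = 0.276), and by 0.40 (edgeR adjusted p = 0.0211) after that correction. SRRM3 is itself on the list of REST targets.

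Targets of REST are neuronal genes that it is known to silence through RE1. The list of 55 was written from general knowledge with earlier results of these data known, so it is no independent evidence of a direction. In the TTC33 knock-down 35 of the 43 tested rose and 0 fell with edgeR (unadjusted p under 0.05: 37 higher, 0 lower; DESeq2: 36 higher, 0 lower), against 6.5% and 5.44% of all genes tested. The median log2 fold change was 1.42. With the GC correction 37 rose and the median was 1.22, and without 1 library at a time between 29 and 36 rose.

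UNC13A, which readies synaptic vesicles for fusion, was at 26.3, 26.4 and 29 CPM in the TTC33 knock-down, 4.1, 3.4 and 3.05 CPM in the CCDC97 knock-down, and 2.35, 2.01 and 2.19 CPM in control cells. The 3 groups were apart from each other. Its log2 fold changes were 3.64 (SE 0.12, edgeR adjusted p = 6.24e-08) in the TTC33 knock-down and 0.70 (SE 0.13, edgeR adjusted p = 0.0177) in the CCDC97 knock-down, where the call was lost in 4 of the 9 fits without 1 library.

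CPLX2, a complexin that clamps synaptic fusion, was at 12.1, 12.7 and 13.2 CPM in the TTC33 knock-down, 1.84, 1.52 and 0.968 CPM in the CCDC97 knock-down, and 1.08, 1.12 and 1.05 CPM in control cells. SCG3, a granin of secretory granules, was at 16.1, 13.4 and 14.7 CPM in the TTC33 knock-down, 2.65, 2.18 and 2.61 CPM in the CCDC97 knock-down, and 1.49, 1.9 and 1.3 CPM in control cells. In both genes the TTC33 knock-down libraries were far above the other groups (log2 fold changes 3.55 and 3.23). Their log2 fold changes in the CCDC97 knock-down were 0.45 (SE 0.20, edgeR adjusted p = 0.241) for CPLX2 and 0.65 (SE 0.17, edgeR adjusted p = 0.0552) for SCG3.

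Of the 8 tested targets that did not pass in the TTC33 knock-down, GDAP1 (0.39), SCN3A (0.94), KCNH2 (0.39), SCG2 (0.44), NEFM (0.15) and SCG5 (0.09) had positive log2 fold changes, and RAB3A (-0.14) and GAD1 (-0.06) negative ones. GAD1, the GABA-forming glutamate decarboxylase, was at 12.7, 14.5 and 13.2 CPM in the TTC33 knock-down and 15, 13.8 and 13.3 CPM in control cells, so its groups overlapped. The values thus differed widely among the targets.

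The filter on low counts kept 43 of the 55 targets, and a gene that is low in control cells could pass it through the TTC33 knock-down alone. Of the 43, 36 were above the filter's level of 0.323 CPM in all control libraries, and 30 of these rose, with a median log2 fold change of 1.29. Of the other 7, 5 rose. The 12 targets that were not tested had at most 11 counts a library. Among them STMN2, a microtubule regulator of growing axons, had 6, 5 and 5 counts in the TTC33 knock-down, 0, 1 and 1 counts in the CCDC97 knock-down, and 0, 0 and 1 in control cells. OLFM3 and GLRA1 had none in any library.

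The median log2 difference of the 43 targets from the control mean was 1.20, 1.40 and 1.44 in the TTC33 knock-down libraries and 0.21, 0.09 and 0.11 in the CCDC97 knock-down libraries. After the GC correction it was 1.20, 1.20 and 1.19 in the TTC33 knock-down, with 0.17, 0.20 and 0.14 in the CCDC97 knock-down. The 3 TTC33 knock-down libraries thus stood at nearly the same level once the GC trend was removed. In the CCDC97 knock-down 1 target rose and 0 fell with edgeR (unadjusted p under 0.05: 9 higher, 1 lower; DESeq2: 3 higher, 0 lower). With the GC correction 8 rose there, against 2046 of all 18299 genes tested. The comparisons share the control libraries.

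**Figure D3:**
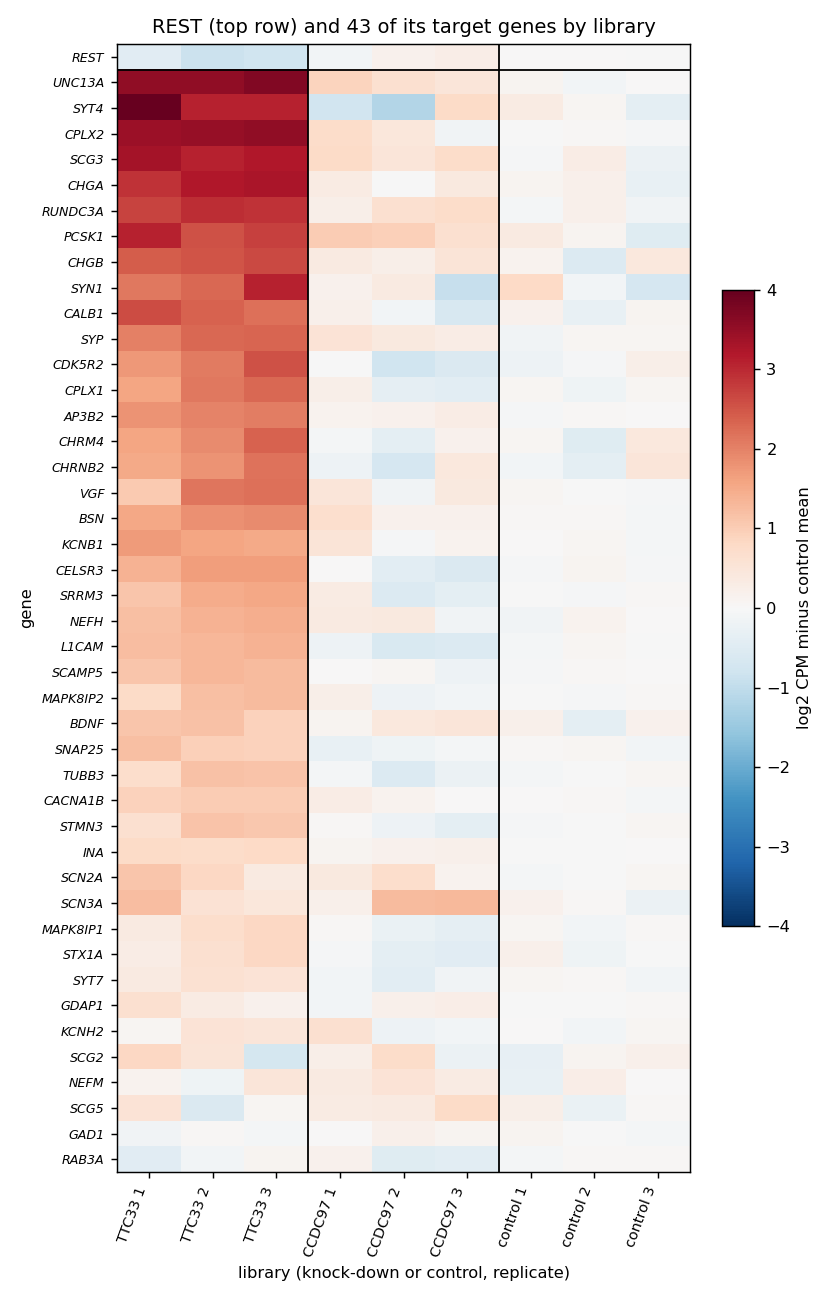
Log2 CPM minus the control mean for REST (top row) and the 43 target genes tested, by library, with the TTC33 knock-down on the left, the CCDC97 knock-down in the middle and the controls on the right. Red is higher and blue lower; REST is blue in the 3 TTC33 knock-down columns, at -0.45, -0.86 and -0.80, while most targets are red there, with library medians of 1.20, 1.40 and 1.44.

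To relate the changes to the REST binding element itself, promoters were searched for RE1, the sequence TTCAGCACC, then 2 free bases, then GGACAGCGC, on both strands. A promoter is taken as 250 bases before to 50 bases after the start of a gene in RefSeq (GRCh38.p14), and for each of 27305 genes the best match of the 18 letters compared was kept. The table held a promoter for 9 of the 10 members, all but RCOR2, and these matched between 11 and 13 letters. At least 15 letters were matched in 43 genes (0.157%), and this set includes genes on and off the target list. Of the 55 targets 37 had a promoter here, and 4 of these matched at least 15 letters. UNC13A matched 13 letters, and CPLX2 and SCG3 matched 12 each. Most targets with a promoter thus had no close match in it, and sequence outside these promoters was not searched. The sequences of 5 of them are shown because they carry the letters at a match of 15 to 18 and because in the TTC33 knock-down SYN1, SKOR1 and CELSR3 rose, CENPS fell and GRIA2 was too low to test. Each has 20 bases on either side, the matched 20 bases are in capitals, and they are read on the strand that carries the RE1 letters.
GRIA2, 18 of 18 letters, chr4:157220369-157220428, minus strand: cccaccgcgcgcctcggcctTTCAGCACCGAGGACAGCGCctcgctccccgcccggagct
SYN1, 17 of 18 letters, chrX:47620051-47620107, minus strand, cut at the promoter's end: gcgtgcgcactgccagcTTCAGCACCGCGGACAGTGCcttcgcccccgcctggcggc
SKOR1, 16 of 18 letters, chr15:67825271-67825330, plus strand: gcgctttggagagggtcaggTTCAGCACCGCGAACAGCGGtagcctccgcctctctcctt
CELSR3, 15 of 18 letters, chr3:48662995-48663054, minus strand: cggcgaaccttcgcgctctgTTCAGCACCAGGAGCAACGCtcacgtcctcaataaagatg
CENPS, 15 of 18 letters, chr1:10430205-10430264, minus strand: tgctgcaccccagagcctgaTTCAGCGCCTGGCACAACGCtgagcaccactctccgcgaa

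Of the 21 tested genes with at least 15 RE1 letters, 8 rose in the TTC33 knock-down (38.1%) and 1 fell, and their median change on the log2 scale was 0.52. By an unadjusted p under 0.05 there were 10 higher and 2 lower, and DESeq2 called 8 higher and 1 lower. The share that rose was 7.28% at 11 or fewer letters, 7.68% at 12, 8.57% at 13 and 9.18% at 14, and 7.53% over all 11869 tested genes with a promoter. Without 1 library at a time between 5 and 9 of the 21 rose. Removing any 1 of the control libraries gave 5. With the GC correction 8 rose again (38.1%), 2 fell and the median was 0.23, but 17.4% of all tested genes with a promoter rose there, and 16.6% to 20.4% of those with 14 or fewer letters. The gap to the other promoters was thus smaller with that correction. Of the 21, 19 were above the filter's level in all control libraries, and 7 of these rose, with a median of 0.3. A stricter cut at an average of 5 CPM left 10 of the 21, of which 4 rose and 0 fell, with a median of 0.05. With the U counts added, the median of the 21 was 0.3, and with DESeq2 it stayed at 0.52. The size of the median thus depended on the genes and counts used. Among the 8 that rose, SYN1, VGF and CELSR3 are also on the target list. The count by RE1 letters and the count of targets thus share genes and are not separate evidence.

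SYN1, the vesicle protein synapsin, was at 1.25, 1.46 and 2.56 CPM in the TTC33 knock-down, 0.283, 0.33 and 0.0968 CPM in the CCDC97 knock-down, and 0.47, 0.218 and 0.127 CPM in control cells (log2 fold change 2.63 in the TTC33 knock-down). Neither the control nor the CCDC97 knock-down libraries all reached the filter's level of 0.323 CPM. SYN1 was thus tested only because of its TTC33 knock-down libraries. CELSR3, an adhesion receptor that guides axons, was at 51.0, 61.5 and 61.9 CPM in the TTC33 knock-down, 19.3, 14.6 and 13.1 CPM in the CCDC97 knock-down, and 18.9, 20.7 and 18.5 CPM in control cells (1.58). The corepressor gene SKOR1 was at 5.94, 9.57 and 8.95 CPM in the TTC33 knock-down, 5.13, 3.7 and 3.77 CPM in the CCDC97 knock-down, and 3.68, 3.86 and 4.34 CPM in control cells (1.04). In these 3 genes the TTC33 knock-down libraries lay above all others. VGF, a secreted neuropeptide precursor with 17 letters, rose by 1.93 there, CPNE9 by 1.82, TMEM179 by 0.93, CHST8 by 0.58 and PDPR by 0.30 on the log2 scale. The calls of TMEM179, CHST8 and PDPR were lost in 4, 6 and 4 of the 9 fits without 1 library.

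A close match did not go with RNA at this depth in every case. GRIA2, a glutamate receptor subunit with all 18 letters, had 3, 2 and 5 counts in the TTC33 knock-down, 1, 5 and 5 counts in the CCDC97 knock-down, and 8, 4 and 2 in control cells. Those numbers were too low to test, and the groups overlapped. LHFPL5, with 17 letters, had a log2 fold change of 0.52 (SE 0.28, edgeR adjusted p = 0.283). CENPS, with 15 letters, fell by 1.03 on the log2 scale (SE 0.24, edgeR adjusted p = 0.0225), a call lost in 4 of the 9 fits without 1 library. In the CCDC97 knock-down 0 of the 21 rose with edgeR, and OGDHL fell by 0.71 on the log2 scale (SE 0.15, edgeR adjusted p = 0.0238, lost in 5 of the 9 such fits). Over all tested genes with a promoter 2.27% rose and 2.8% fell there, so a count of 0 among 21 is near the background. At an unadjusted p under 0.05 there were 1 higher and 1 lower of the 21, and DESeq2 called 0 higher and 1 lower. A match of letters is a description and not a measured binding site.

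**Figure D4:**
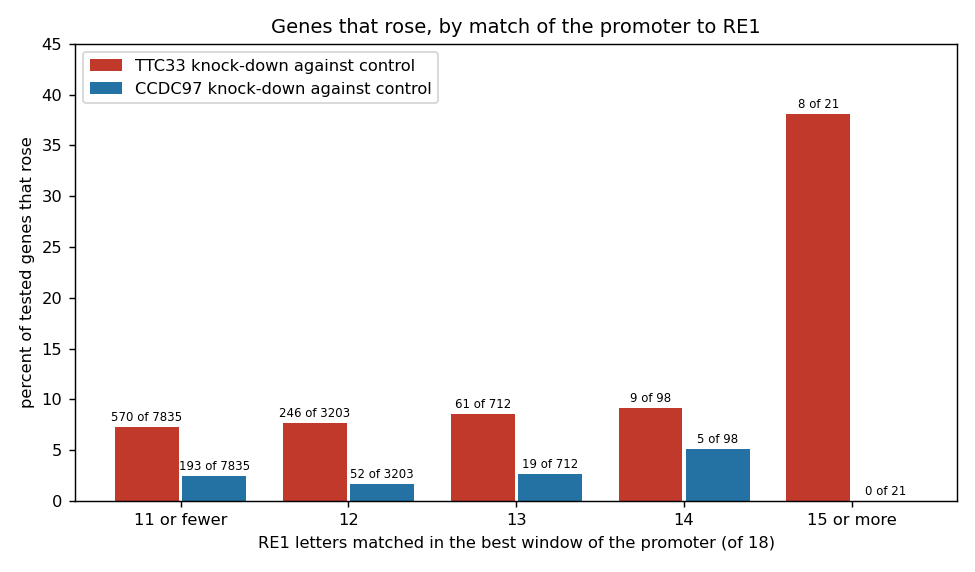
Percent of tested genes that rose (edgeR, axis from 0) by the number of RE1 letters matched in the promoter, with the TTC33 knock-down to the left of the CCDC97 knock-down in each pair and the gene numbers above the bars. The share in the TTC33 knock-down is 7.28% to 9.18% up to 14 letters and 38.1% at 15 or more, where it rests on 8 of 21 genes.

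Markers of other cell types were read beside these changes. Leukocyte markers summed to at most 0.387 CPM and hepatocyte markers to at most 0.248 CPM in any library, with SERPINA1 at 0 counts throughout. Genes typical of the HEK293 line summed to 1240 to 1380 CPM in the TTC33 knock-down, 1100 to 1180 CPM in the CCDC97 knock-down and 1150 to 1180 CPM in control cells. Of these 8 genes 1 rose and 1 fell in the TTC33 knock-down, VIM by 0.34 and NEFL by 0.30 on the log2 scale, and the calls were lost in 5 and 3 of the 9 fits without 1 library.

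Neuron identity markers summed to 15.3 to 15.5 CPM in the TTC33 knock-down, 9.34 to 11.4 CPM in the CCDC97 knock-down and 10.3 to 11.3 CPM in control cells. Of their 8 genes 5 were tested and 3 rose in the TTC33 knock-down (SYT1 by 2.00, TUBB3 by 1.12 and SLC17A7 by 1.03), and TUBB3 is also on the target list. Over all genes tested 6.5% rose there. SYT1, TUBB3 and SLC17A7 averaged 0.506, 0.902 and 1.45 CPM in the TTC33 knock-down and 0.122, 0.413 and 0.713 CPM in control cells. They were thus a small part of the summed level. At an unadjusted p under 0.05 all 5 tested, MAP2 and RBFOX3 included, were higher, with 16.3% of all genes. The calls were lost in 2, 5 and 3 of the 9 fits without 1 library for SYT1, TUBB3 and SLC17A7. SYT1 lay below the filter level of 0.323 CPM in all control and CCDC97 knock-down libraries (at most 0.198 CPM), so that it was tested only because of its TTC33 knock-down libraries, at 0.61, 0.485 and 0.421 CPM. SLC17A6, a defining marker of glutamatergic neurons, had 0 counts in every library. Fibroblast markers summed to 4.05 to 4.51 CPM in the TTC33 knock-down, 6.71 to 8.08 CPM in the CCDC97 knock-down and 3.07 to 4.25 CPM in control cells. Of these 5 genes 2 were tested, COL3A1 and LUM. COL3A1 rose by 1.11 in the CCDC97 knock-down, and its log2 fold change in the TTC33 knock-down was 0.01 (SE 0.16). LUM was at 1.09, 0.451 and 0.421 CPM in the TTC33 knock-down and 0.0829, 0.136 and 0.0951 CPM in control cells. It too was tested only because of the TTC33 knock-down libraries, and its log2 fold change of 2.62 lost its call in 2 of the 9 fits without 1 library. In the CCDC97 knock-down the log2 fold change of LUM was -0.05 (SE 0.77). Glia markers summed to 23.0 to 26.2 CPM in the TTC33 knock-down, 26 to 28.8 CPM in the CCDC97 knock-down and 31.2 to 33.1 CPM in control cells. Of their 5 genes 4 were tested, with log2 fold changes from -0.72 to 0.56 in the TTC33 knock-down. With edgeR 0 rose and 1 fell there, against 6.5% and 5.44% of all genes tested. With the GC correction 0 rose and 3 fell, against 14.6% and 13.1%. MBP was the gene that fell with edgeR, by 0.48 on the log2 scale, a call lost in 2 of the 9 fits without 1 library. It averaged 17.1 CPM in the TTC33 knock-down and 23.9 CPM in control cells, most of the summed level. The part of cell type in the change of REST or its targets was not tested.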

How the data were processed

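The deposited values are raw counts of reads for each gene. The submitters' processing notes name Trimmomatic 0.39, HISAT2, HTSeq 2.0.1 and the build GRCh38. Not given in the sources used here are the annotation release, the strand setting and what R12 and U stand for. The R12 counts were used. Rows that name no gene held 33.39% to 57.92% of a library's counts and were left out.

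Genes passing filterByExpr (18299) were fitted in edgeR 4.0.16 (R 4.3.3) with TMM factors and a quasi-likelihood model of group over all 9 libraries (6 residual degrees of freedom, common biological coefficient of variation 0.109), two-sided, with Benjamini-Hochberg adjustment over all genes and a threshold of 0.05. SE is the log2 fold change divided by the root of F. Log2 CPM per library used a prior count of 2. GC content and length of the longest transcript (GENCODE 29, 18042 genes) were corrected with trends fitted in mgcv 1.9.3. Alternatives were other scalings, filters and counts, DESeq2 1.42.0, a fit of 2 groups, a replicate block and leaving out each library. The code was tested on simulated counts.

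The members and lists were chosen with earlier results of these data known. Named genes are the members, the targeted genes, up to 3 genes past the threshold of each list with the smallest adjusted p in each comparison with control, and the 3 most correlated genes for REST and the member leading in each comparison. The targets given as not past the threshold, not tested or on both lists, the genes named at an unadjusted p and those named by their RE1 letters were added after their values were seen. The limit of 3 counts covers counting error only, whereas the SE also holds the spread between libraries that edgeR estimated.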

Additional observations from a re-analysis of the deposited data

How the results depend on the processing

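The fall of REST in the TTC33 knock-down kept its direction and its call under each of the 10 alternatives and in the 9 fits without 1 library, and so did its difference from the CCDC97 knock-down. The number of members past the threshold was 1 to 3 in the TTC33 knock-down, 0 to 0 in the CCDC97 knock-down and 1 to 4 in the direct comparison over the fits without 1 library. In the direct comparison it was 3 with no filter on low counts and 3 with DESeq2. The genes changed, 2186 in the TTC33 knock-down, 835 in the CCDC97 knock-down and 3943 in the direct comparison, moved with several settings. In the TTC33 knock-down they were 3821 with no filter, 5068 with the GC and length correction, and 552 (without control replicate 1) to 6512 (without replicate 1 of that knock-down) without 1 library. In the CCDC97 knock-down they were 1369 with no filter, 1471 with DESeq2, 1339 in the fit of 2 groups, 3552 with the correction, and 203 (without control replicate 1) to 1981 (without TTC33 knock-down replicate 1) without 1 library. In the direct comparison they were 1479 in the fit of 2 groups and 1528 (without CCDC97 knock-down replicate 2) to 7767 (without TTC33 knock-down replicate 1) without 1 library. The causes of these shifts were not tested.

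The labels do not say whether replicate numbers pair the libraries. The deviations of same-numbered libraries from their group means correlated between -0.504, for replicate 1 of both knock-downs, and 0.094. Those of libraries with different numbers correlated between -0.274 and 0.37. With 3 libraries a group these values cannot settle whether the numbers mark a shared batch. With the replicate number as a block, genes changed were 756 in the TTC33 knock-down, 240 in the CCDC97 knock-down and 1857 in the direct comparison, and with block and GC correction together 4624 in the TTC33 and 3153 in the CCDC97 knock-down. Under the block REST was at -0.695 (edgeR adjusted p = 0.0358) in the TTC33 knock-down.

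Log2 fold changes near 0 changed sign in members that did not pass. With the GC correction, and with it and the block together, they were 0.059 and 0.059 for RCOR3, -0.029 and -0.029 for KDM1A, -0.004 and -0.005 for SIN3A, and 0.109 and 0.107 for HDAC2 in the TTC33 knock-down. They were 0.058 and 0.047 for RCOR2, 0.009 and 0.010 for SIN3A, and 0.073 and 0.074 for EHMT2 in the CCDC97 knock-down. They were 0.020 and 0.021 for RCOR3, -0.013 and -0.014 for SIN3A, 0.008 and 0.005 for HDAC2, and -0.039 and -0.040 for EHMT2 in the direct comparison. With no filter KDM1A was at -0.008 and SIN3A at -0.017 in the TTC33 knock-down, where SIN3A was also at -0.004 in the fit of 2 groups and -0.001 with the summed counts. Without 1 library the ranges that crossed 0 were -0.019 to 0.047 for KDM1A and -0.047 to 0.024 for SIN3A in the TTC33 knock-down, -0.322 to 0.074 for RCOR2, -0.025 to 0.001 for SIN3A and -0.171 to 0.018 for EHMT2 in the CCDC97 knock-down, and -0.108 to 0.018 for RCOR1, -0.194 to 0.220 for RCOR2, -0.058 to 0.007 for KDM1A and -0.033 to 0.033 for SIN3A in the direct comparison.

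The depth limits SRRM4 and the 12 untested targets, and RCOR2 through its low counts.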
